A study of Mus musculus with 6 samples.

Results

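Facilitative glucose transport and glucose sensing were examined in mouse renal cortex through 10 genes taken by symbol, and all 10 were found among the 24346 genes of the deposited tables. They comprise 5 glucose transporters (Slc2a1, Slc2a2, Slc2a4, Slc2a8 and Slc2a12), the hexokinases Hk1 and Hk2, the glycolytic regulator Pfkfb3, and Txnip and Mlxipl, through which cells register glucose. The samples were 3 C57BL/6 mice given tofogliflozin in a high-fat, high-cholesterol diet with bile salt for 8 weeks and 3 C57BL/6 mice given the same diet alone for 8 weeks. Both groups therefore ate the diet used to induce steatohepatitis, so neither is a lean baseline, and standard chow was not analysed here. Tofogliflozin inhibits SGLT2, the sodium-coupled transporter by which the early proximal tubule takes glucose back from the filtrate. The labels give neither the age nor the sex of the mice, and the design text states n = 3 per group, read here as 1 mouse per library.

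In the proximal tubule, glucose enters the cell at the apical side through sodium-coupled transporters and leaves at the basolateral side down its gradient through facilitative transporters of the GLUT family, mainly GLUT2 in the early segments and GLUT1 further along. Hexokinase commits glucose to metabolism inside the cell by phosphorylation. Rising glucose phosphates activate ChREBP (encoded by Mlxipl) and its relative MondoA (encoded by Mlxip), which bind DNA with their partner MLX and induce Txnip, an arrestin-like protein that binds thioredoxin and restrains glucose uptake. Txnip is therefore widely read as a transcript that follows glucose entry into cells.

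Values are FPKM, fragments scaled to transcript length and library size, so levels of different genes can be compared per length. Depth was estimated, from steps between the smallest values, at 7570000 to 9800000 fragments a library, since the tables carry no counts. Tofogliflozin replicate 1 was the deepest. Correlations between libraries on the log2 scale ran from 0.980 to 0.990. Markers of the cortical proximal tubule were abundant, with Slc34a1 at 2128 to 2292 FPKM in tofogliflozin libraries and 2286 to 2645 FPKM in diet libraries. Groups were compared with limma on log2(FPKM + 1) values, with Benjamini-Hochberg adjustment over all 12248 genes that reached 1 FPKM in at least 3 of the 6 libraries.

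The Txnip promoter is shown because Txnip had the smallest limma p of the 9 genes that passed the filter. In addition, glucose reaches it through a known element there, a pair of imperfect E boxes bound by ChREBP and MondoA. The 250 bases before the start of transcription are given 5′ to 3′ from RefSeq (GRCm38.p6, chr3:96557707-96557956, plus strand). Capitals mark the 2 CACGAG boxes, both CCAAT boxes (1 of them reading ATTGG, its reverse) and a GTAAACA site of the kind bound by FoxO factors.

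Txnip promoter: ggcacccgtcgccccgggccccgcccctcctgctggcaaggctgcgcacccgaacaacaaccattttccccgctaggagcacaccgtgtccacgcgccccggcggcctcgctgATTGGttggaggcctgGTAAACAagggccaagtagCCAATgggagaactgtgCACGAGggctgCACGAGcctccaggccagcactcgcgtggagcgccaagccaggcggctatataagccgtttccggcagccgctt

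Both strands were searched, and no match in the Txnip window overlapped another. The paired boxes, written CACGAGNNNNNCACGAG, lay from 85 to 69 bases before the start, and this spacing with these letters occurred in 1 of 32851 RefSeq promoters of the same length, that of Txnip itself. The letters were taken from the element known for this gene, so its rarity is a description only. GTAAACA was found in 3.17% and CCAAT in 33.8% of those promoters. The canonical E box CACGTG, present in 6.02% of them, was absent from the Txnip window. It was found 98 to 93 bases before the upstream start of Mlxipl and 53 to 48 bases before the inner start of Pfkfb3. Promoters of 9 of the 10 genes were matched, Slc2a4 being the other one.

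In the GRCm38 annotation (GENCODE), the build of the files, Slc2a2 lies at 28697903 to 28731359 of chromosome 3, Slc2a1 at 119108711 to 119137983 of chromosome 4 and Slc2a12 at 22645011 to 22704285 of chromosome 10, all on the plus strand, as is Mlxipl at 135089890 to 135138382 of chromosome 5. On the minus strand are Slc2a4 at 69942539 to 69948188 of chromosome 11, Slc2a8 at 32972990 to 32982083 of chromosome 2, Pfkfb3 at 11471433 to 11554077 of chromosome 2, Hk1 at 62268855 to 62379908 of chromosome 10 and Hk2 at 82725025 to 82774454 of chromosome 6. Each value covers a whole gene and does not tell its transcripts apart.

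The comparison asked whether these genes stood at another level in mice given the SGLT2 inhibitor. Of the 10 genes, 9 passed the filter on low values and 0 passed the test over all genes (limma, adjusted p under 0.05), against 0.253% of all genes tested. At an unadjusted p under 0.05, 1 of the 9 was higher and 0 lower, where 6.7% of all genes were higher and 6.39% lower. Txnip was that gene, and it was also the 1 gene whose libraries did not overlap between groups. By that rule 9.63% of all genes were higher and 8.86% lower. The log2 change was positive for 5 of the 9, with a median over the 9 of 0.07, beside a median of 0.00 over all genes.

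**Figure D1:**
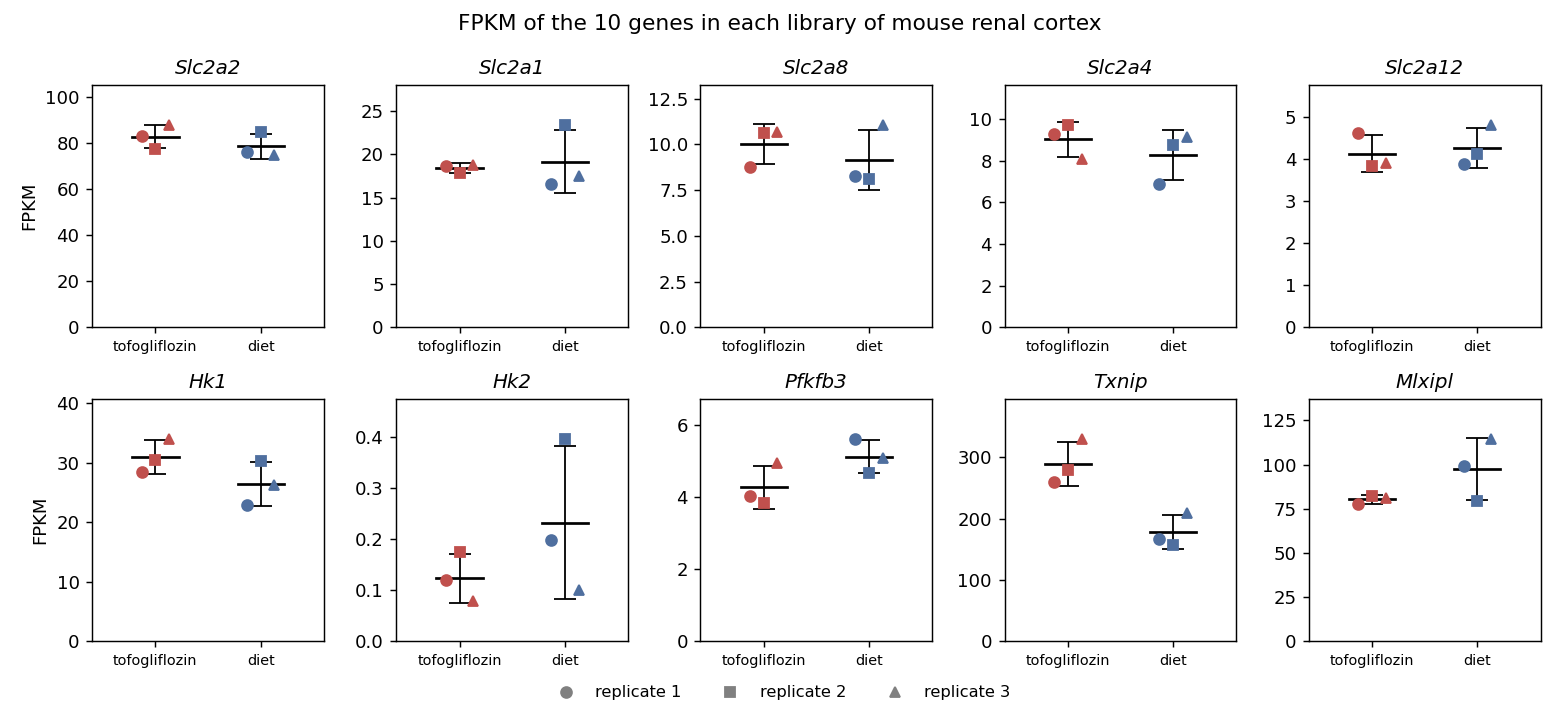
FPKM (y axis, from 0) of the 10 genes in tofogliflozin libraries (left of each panel, red) and diet libraries (right, blue), with symbols for the 3 replicates, and bars for the mean ± SD. The Txnip libraries lay at 260 to 329 FPKM with tofogliflozin and at 157 to 210 FPKM on the diet alone, while the libraries of the other 9 genes overlapped.

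Txnip was the most abundant of the 10. It stood at 260, 279 and 329 FPKM in tofogliflozin libraries, against 167, 157 and 210 FPKM in diet libraries. The lowest tofogliflozin library was thus above the highest diet library, so the groups did not overlap. The means were 289.5 ± 35.7 and 178 ± 28.0 FPKM (tofogliflozin and diet, SD, n = 3 each), a ratio of 1.63. The log2 change of 0.70 ± 0.13 (SE; 95% interval 0.40 to 1.0) ranked 101 of 12248 by p, with an unadjusted p of 0.000639 and an adjusted p of 0.0768 (limma), and so did not pass. An exact permutation test on the FPKM gave a two-sided p of 0.10, the smallest that 3 against 3 can give. Without diet replicate 3, the highest of the diet libraries for this gene, the log2 change was 0.83 and passed (limma adjusted p = 0.0388). In the other 12 settings tried it did not pass, and the log2 change over all 13 ran from 0.61 to 0.83.

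In that annotation Txnip spans 96557957 to 96561883 of chromosome 3 (plus strand), and the noncoding gene Gm15441 overlaps it on the minus strand. Gm15441 is known in mouse liver as a PPARα-induced antisense transcript of Txnip. It is named here after its values were seen. It was at 1.17, 0.786 and 0.778 FPKM in tofogliflozin libraries, against 0.558, 0.794 and 1.17 FPKM in diet libraries. These levels overlapped between groups and were at most 1.17 FPKM. Whether strand was used in counting is not stated in the labels, so reads of the 2 genes may not have been told apart.

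Sums of some marker lists for cell types of the cortex did not overlap between groups, and others did. The summed FPKM of 5 intercalated cell markers was 82.0 to 100 in tofogliflozin libraries and 67.5 to 80.6 in diet libraries, and 2 of the 5 were higher at an unadjusted limma p under 0.05. The 4 markers of the distal convoluted tubule summed to 497 to 561 FPKM with tofogliflozin and 421 to 466 FPKM on the diet alone, with 2 of 4 higher. Most of this sum was Slc12a3, whose own libraries overlapped, at 348 to 406 FPKM with tofogliflozin and 321 to 357 FPKM on the diet alone. The 4 markers of the late proximal segment S3 summed to 444 to 546 FPKM with tofogliflozin and 562 to 646 FPKM on the diet alone, with 3 of 4 lower. Most of the S3 sum was Slc7a13, at 399 to 471 FPKM with tofogliflozin and 496 to 527 FPKM on the diet alone. It was the 1 marker of the 4 whose libraries did not overlap between groups. The 5 markers of collecting duct principal cells summed to 240 to 306 FPKM with tofogliflozin and 188 to 243 FPKM on the diet alone, with overlap, and 3 of 5 were higher. Of 8 macrophage markers 2 were lower and 1 had a log2 change above 0, and their sums of 93.4 to 141 FPKM with tofogliflozin and 111 to 296 FPKM on the diet alone overlapped. None of these lists had a gene past the test over all genes (limma). By the unadjusted limma p under 0.05, 6.7% of all genes were higher and 6.39% lower. No defining marker of the 5 lists whose sums are given here was at 0 in all libraries. In a homogenate of cortex, fewer cells of a type and less RNA per cell cannot be told apart. The part of these lists in the Txnip difference was not tested.

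Mlxipl, the gene of ChREBP, was next in abundance and was not higher with tofogliflozin. Its libraries stood at 77.6, 82.5 and 81.3 FPKM with tofogliflozin, against 99.0, 79.2 and 114 FPKM on the diet alone. The tofogliflozin libraries lay close together (3.18% coefficient of variation) and the diet libraries apart (18.1%), with diet replicate 2 inside the tofogliflozin range. The log2 change was -0.26 ± 0.12 (SE; 95% interval -0.55 to 0.03; limma adjusted p = 0.429). RefSeq lists 2 starts for Mlxipl that are 17001 bases apart. The upstream one, whose promoter holds CACGTG, is the start known for the short, constitutively active ChREBP-β. FPKM per gene adds both, so the share of each was not measured.

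**Figure D2:**
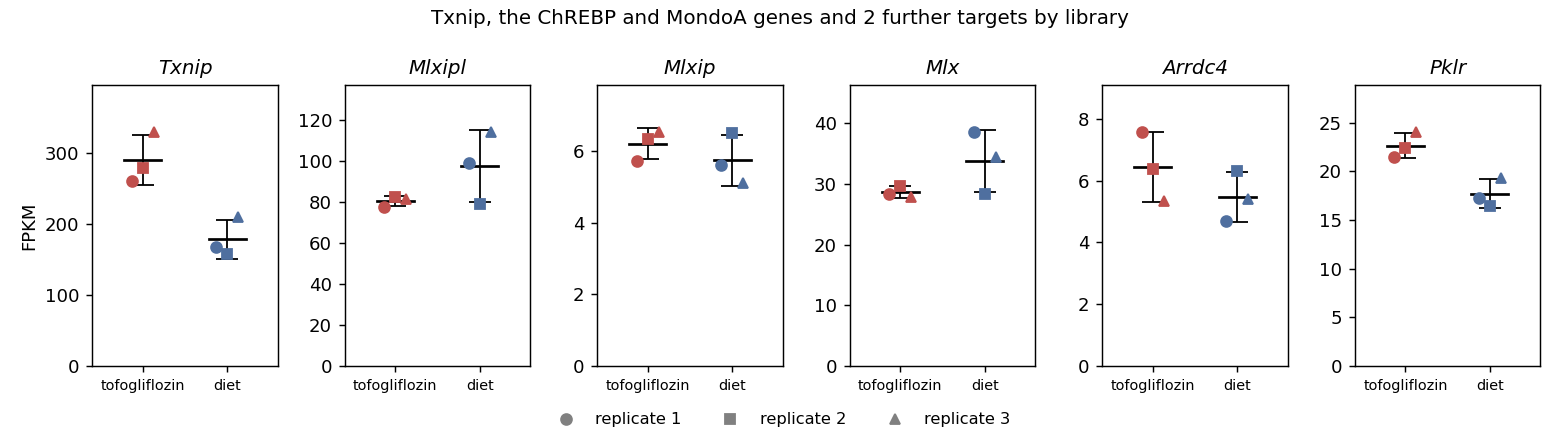
FPKM (y axis, from 0) of Txnip, Mlxipl, Mlxip, Mlx, Arrdc4 and Pklr in tofogliflozin (left, red) and diet libraries (right, blue), with symbols for replicates, and bars for mean ± SD. Txnip and Pklr were the 2 of these genes whose libraries did not overlap between groups. Pklr was 1 of 2 such genes, both higher, among 15 tested ChREBP targets, of which 7 had a change above 0. By that rule 9.63% of all genes tested were higher and 8.86% lower.

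Of 9 genes listed as partners or relatives of these sensors, the log2 change was positive for 5 (median over the list 0.06), and 0 of 9 were at an unadjusted limma p under 0.05 in either direction. Mlxip, the gene of MondoA, was at 5.72, 6.36 and 6.55 FPKM with tofogliflozin, against 5.63, 6.52 and 5.12 FPKM on the diet alone. Mlx, their shared partner, was at 28.4, 29.7 and 27.8 FPKM with tofogliflozin, against 38.6, 28.4 and 34.4 FPKM on the diet alone. Arrdc4, an arrestin-like relative of Txnip that the same factors induce, was at 7.58, 6.39 and 5.34 FPKM with tofogliflozin, against 4.71, 6.33 and 5.40 FPKM on the diet alone. Its groups overlapped, and its log2 change of 0.19 ± 0.14 (SE) did not pass (limma adjusted p = 0.594). Arrdc2, another arrestin-like gene, varied most among mice. It was at 10.7, 36.2 and 26.5 FPKM with tofogliflozin and 15.1, 6.97 and 12.6 FPKM on the diet alone. These groups overlapped, and the log2 change of 0.93 ± 0.42 (SE) did not pass (limma adjusted p = 0.400).

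Among 16 genes known as ChREBP targets, 15 passed the filter, 7 of these had a change above 0, and the median was 0.00. Over all genes 0 passed (limma). At an unadjusted p under 0.05, 2 were higher and 1 lower, where 6.7% of all genes were higher and 6.39% lower. G6pc, the catalytic subunit of glucose-6-phosphatase, stood at 398, 435 and 371 FPKM with tofogliflozin, against 239, 287 and 192 FPKM on the diet alone, without overlap (log2 change 0.76 ± 0.14; limma adjusted p = 0.0795). Pklr, the liver-type pyruvate kinase, was at 21.5, 22.4 and 24.1 FPKM with tofogliflozin, against 17.3, 16.5 and 19.3 FPKM on the diet alone (log2 change 0.34 ± 0.08; limma adjusted p = 0.169). Scd1, a fatty acid desaturase, was at 16.8, 20.3 and 15.9 FPKM with tofogliflozin, against 29.1, 26.6 and 20.0 FPKM on the diet alone with overlap (log2 change -0.48 ± 0.14; limma adjusted p = 0.223).

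None of the 5 transporters passed the test, 3 having a log2 change above 0 and 2 below. Slc2a2, which encodes GLUT2, was the most abundant of the 5, at 83.1, 77.6 and 87.8 FPKM in tofogliflozin libraries and at 76.1, 84.8 and 74.9 FPKM in diet libraries. The groups overlapped, and the log2 change of 0.07 had a 95% interval from -0.11 to 0.26 (limma adjusted p = 0.746). Slc2a2 made up 66.5% ± 1.51 of the FPKM summed over the 5 transporters with tofogliflozin and 65.8% ± 2.16 on the diet alone (SD, n = 3 each). The 5 together summed to 124 ± 4.83 FPKM with tofogliflozin and 119 ± 8.89 FPKM on the diet alone. Sums of 4 markers of early proximal segment S1 also overlapped, at 884 to 976 FPKM (tofogliflozin) and 869 to 986 FPKM (diet). Of the 4, Slc5a12 alone did not overlap, at 136 to 187 FPKM with tofogliflozin and 112 to 128 FPKM on the diet alone. It was higher (limma adjusted p = 0.199), and over all genes 9.63% were higher without overlap.

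Slc2a1, the gene of the widespread transporter GLUT1, stood at 18.7, 17.8 and 18.8 FPKM with tofogliflozin, against 16.6, 23.4 and 17.5 FPKM on the diet alone. Diet replicate 2 was the highest of the 6, and the other diet libraries were lower than all 3 tofogliflozin libraries. The log2 change was -0.04 ± 0.12 (SE; 95% interval -0.32 to 0.24; limma adjusted p = 0.929), and without diet replicate 2 it was 0.11 (limma adjusted p = 0.542). In that library 8 macrophage markers summed to 296 FPKM, against 93.4 to 141 FPKM in tofogliflozin libraries and 111 and 161 FPKM in the other diet libraries. Their part in the Slc2a1 value was not tested. Sums of 7 endothelial markers overlapped, at 159 to 191 FPKM with tofogliflozin and 168 to 177 FPKM on the diet alone. Of the 7, 1 was higher without overlap (Flt1) and 1 lower (Cdh5), beside 9.63% and 8.86% of all genes.

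Slc2a4 encodes GLUT4, the insulin-responsive transporter of muscle and fat. It was at 9.27, 9.71 and 8.10 FPKM with tofogliflozin, against 6.89, 8.78 and 9.16 FPKM on the diet alone, with overlap (log2 change 0.12, 95% interval -0.15 to 0.39; limma adjusted p = 0.726). The sum of 6 adipocyte markers was 0.256 to 0.401 FPKM with tofogliflozin and 7.24, 0.450 and 1.51 FPKM on the diet alone. These sums did not overlap, but the nearest libraries were at 0.401 and 0.450 FPKM, and 0 of the 6 genes passed the filter. Cfd was at 0.108 to 0.136 FPKM with tofogliflozin and 5.03, 0.295 and 0.870 FPKM on the diet alone, most of each diet sum. Cidec did not overlap either, Adipoq, Plin1 and Retn did, and Lep was at 0 in all 6 libraries. The diet library with the highest adipocyte sum, replicate 1, had the lowest Slc2a4, and the part of these cells in the Slc2a4 values was not tested. The skeletal muscle markers Acta1, Ckm and Myh4 were listed at 0 in all 6 libraries. Among 10 genes of GLUT4 vesicle traffic, 3 had a change above 0 with a median of -0.06. Vamp2, a vesicle fusion protein of wide expression, alone had an unadjusted limma p under 0.05, where 6.7% of all genes were higher. It was at 52.2, 48.1 and 51.8 FPKM with tofogliflozin against 37.5, 42.2 and 44.3 FPKM on the diet alone (limma adjusted p = 0.203).

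Slc2a8 encodes GLUT8, which resides mostly inside the cell. It was at 8.77, 10.6 and 10.7 FPKM with tofogliflozin, against 8.29, 8.14 and 11 FPKM on the diet alone, and the highest single library was a diet one. Slc2a12, the gene of GLUT12, was at 4.63, 3.83 and 3.92 FPKM with tofogliflozin, against 3.89, 4.13 and 4.81 FPKM on the diet alone. Neither passed (limma adjusted p = 0.736 for Slc2a8 and 0.913 for Slc2a12), and their 95% intervals ran from -0.17 to 0.42 and from -0.29 to 0.21 on the log2 scale. Slc2a12 overlaps Tbpl1 on the other strand, which was at 4.36 to 5.42 FPKM with tofogliflozin and 4.03 to 4.59 FPKM on the diet alone, so reads of the 2 genes may not have been told apart.

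**Figure D3:**
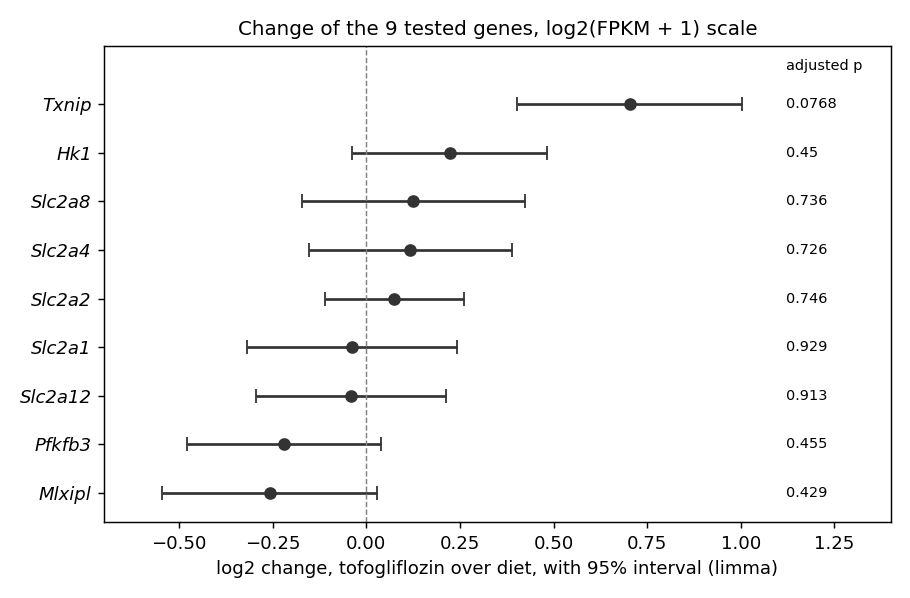
Log2 change of the 9 tested genes, tofogliflozin over diet, as points with limma's 95% intervals (x axis, log2(FPKM + 1) scale) and the adjusted p at the right. The interval of Txnip, 0.40 to 1.0, excludes 0, and those of the other 8 include it.

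Hk1, the hexokinase found in most tissues, was at 28.4, 30.5 and 34.0 FPKM with tofogliflozin, against 22.9, 30.3 and 26.2 FPKM on the diet alone. Diet replicate 2 lay between the tofogliflozin libraries and the other diet libraries lay below them. The log2 change was 0.22 ± 0.11 (SE; 95% interval -0.04 to 0.48; limma adjusted p = 0.450). Hk1os, which overlaps Hk1 on the other strand, was at most 1.21 FPKM. Hk2, the inducible form of muscle and fat, stayed below the filter in every library. It was at 0.119, 0.174 and 0.0784 FPKM with tofogliflozin, against 0.199, 0.396 and 0.101 FPKM on the diet alone, and an exact permutation test gave a two-sided p of 0.30. With its longest transcript of 5513 bases, these values rest on about 3.69 to 7.38 fragments with tofogliflozin and 4.61 to 16.6 on the diet alone, by the estimated depth. Hk2 made up 0.406% ± 0.169 of the FPKM of the pair with tofogliflozin and 0.846% ± 0.454 on the diet alone (SD, n = 3 each).

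Pfkfb3 encodes a bifunctional enzyme that raises the level of an activator of phosphofructokinase. It was at 4.03, 3.83 and 4.94 FPKM with tofogliflozin, against 5.6, 4.67 and 5.09 FPKM on the diet alone. Tofogliflozin replicate 3 lay between the lowest diet library and the next, and the other tofogliflozin libraries lay below all 3 diet libraries. The log2 change was -0.22 ± 0.11 (SE; 95% interval -0.48 to 0.04; limma adjusted p = 0.455). Pfkfb4, a relative, was at 2.98, 4.17 and 2.73 FPKM with tofogliflozin, against 4.34, 4.40 and 3.75 FPKM on the diet alone (limma adjusted p = 0.446). Of 7 further genes of hexose phosphorylation and this enzyme family, 2 passed the filter and 0 of these were at an unadjusted limma p under 0.05.

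Over all 6 libraries the mean level per length ran from Txnip (234 FPKM) through Mlxipl (89.0), Slc2a2 (80.7), Hk1 (28.7), Slc2a1 (18.8), Slc2a8 (9.59), Slc2a4 (8.65), Pfkfb3 (4.69) and Slc2a12 (4.20) to Hk2 (0.178). Ranges of neighbours overlapped for Mlxipl and Slc2a2, for Hk1 and Slc2a1, for Slc2a8 and Slc2a4, and for Pfkfb3 and Slc2a12. Hk1 was nonetheless above Slc2a1 in 6 of 6 libraries, whereas Mlxipl was above Slc2a2 in 3 of 6. Among the 9 tested genes the median coefficient of variation was 9.18% in the tofogliflozin group and 14.7% in the diet group, beside 8.21% and 9.82% over all genes tested.

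**Figure D4:**
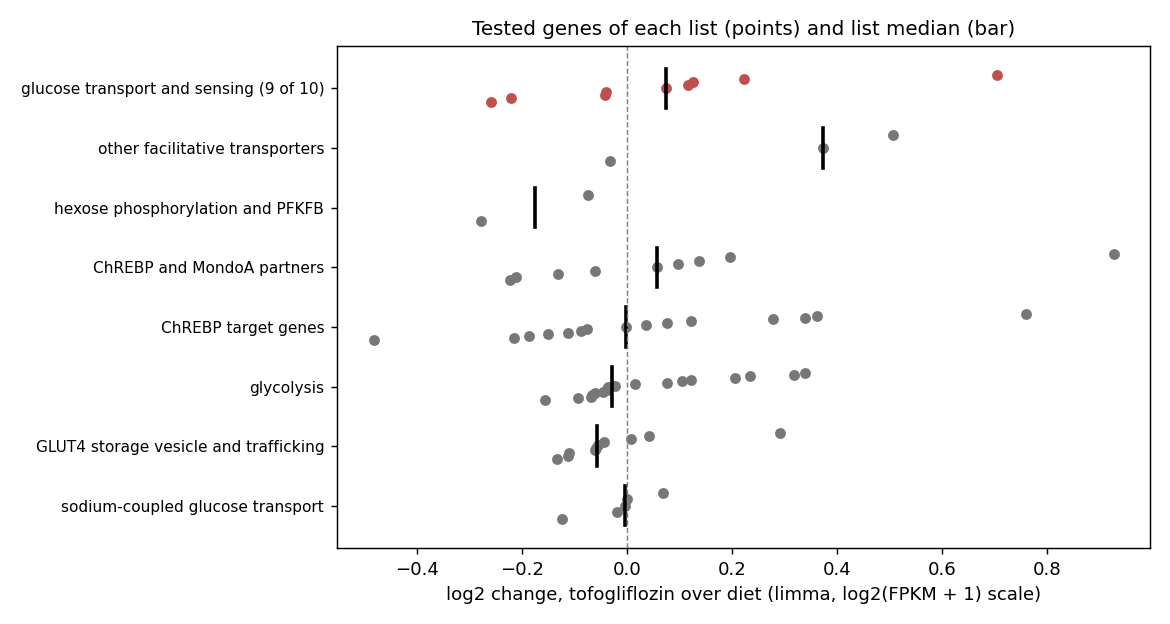
Log2 change, tofogliflozin over diet (x axis, log2(FPKM + 1) scale), of the tested genes of each pathway list as points, with the 10 examined genes in red at the top (9 tested), and the list median as a bar. The medians of these pathway lists ran from -0.18 for hexose phosphorylation and PFKFB genes (2 tested) to 0.37 for the other facilitative transporters (3 tested).

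The surrounding pathway was given from lists of known genes. Of 8 other genes listed as facilitative transporters 3 passed the filter. Of these, 2 were higher at an unadjusted limma p under 0.05, where 6.7% of all genes were higher. Slc2a5, the fructose transporter GLUT5 of the apical proximal tubule, was at 35.7, 43.7 and 38.3 FPKM with tofogliflozin, against 26.6, 25.5 and 29.7 FPKM on the diet alone, without overlap (log2 change 0.51 ± 0.10; limma adjusted p = 0.0817). Slc2a9, a urate transporter, was at 6.99, 6.76 and 7.50 FPKM with tofogliflozin, against 5.73, 4.76 and 5.25 FPKM on the diet alone, also without overlap (limma adjusted p = 0.166). Neither passed over all genes. Slc5a2, which encodes SGLT2 itself, was at 161, 168 and 163 FPKM with tofogliflozin, against 172, 150 and 221 FPKM on the diet alone (limma adjusted p = 0.746), and Slc5a1, the gene of SGLT1, at 16.7, 16.3 and 18 FPKM with tofogliflozin against 15.3, 15.2 and 21.2 FPKM on the diet alone (0.997).

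Of 19 glycolysis genes 18 passed the filter, 8 of these had a change above 0, and the median was -0.03. At an unadjusted limma p under 0.05, 3 were higher and 0 lower, where 6.7% of all genes were higher and 6.39% lower. The 3 were Pklr, described above, and Pgam2 and Eno3, which encode muscle-type forms of phosphoglycerate mutase and enolase. Pgam2 was at 66.0, 65.5 and 65.0 FPKM with tofogliflozin, against 60.6, 51.4 and 58.4 FPKM on the diet alone, without overlap (limma adjusted p = 0.312). Eno3 was at 7.09, 6.15 and 6.27 FPKM with tofogliflozin, against 4.22, 4.75 and 6.23 FPKM on the diet alone (limma adjusted p = 0.355). Gapdh was at 1437 to 1612 FPKM with tofogliflozin and 1389 to 1692 FPKM on the diet alone.

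Genes whose pattern over the 6 libraries was most like that of Txnip were named by the mean absolute difference of their deviations on the log2 scale. Txnip differed between the groups, so genes chosen this way differ in the same direction by that choice. Their group values and p are therefore a description only. The 5 nearest were Nat6 (0.07), Grid1 (0.08), Car14 (0.08), Nap1l5 (0.08) and Alb (0.10). Grid1 was at 1.52, 1.25 and 1.77 FPKM with tofogliflozin, against 0.436, 0.471 and 0.868 FPKM on the diet alone. It thus passed the filter of 1 FPKM only through the tofogliflozin libraries. Car14, a membrane carbonic anhydrase of the kidney, was at 132, 152 and 156 FPKM with tofogliflozin, against 89.9, 93.7 and 111 FPKM on the diet alone (limma adjusted p = 0.0747), and it overlaps Aph1a on the other strand. Nat6, an older symbol of Naa80, was at 33.3, 36.6 and 44.4 FPKM with tofogliflozin, against 22.6, 19.3 and 23.0 FPKM on the diet alone (limma adjusted p = 0.0532). It overlaps Hyal1 on the same strand, which was at 16.0, 15.8 and 20.5 FPKM with tofogliflozin against 5.11, 5.80 and 4.20 FPKM on the diet alone, so reads may be split between them.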

How the data were processed

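RNA-seq of renal cortex was analysed from 3 tofogliflozin and 3 diet mice, grouped and numbered from the labels. The authors deposited 1 FPKM table per library for 24346 genes. Per the labels' protocols, libraries were made with a stranded mRNA kit. Per the submitters' processing notes, TopHat2 2.1.1, Bowtie2 2.2.8, SAMtools 0.1.18, Cuffdiff 2.2.1 and build mm10 were named. The gene annotation, the strand setting and any scaling of libraries are not stated there. The upper quartile over all genes was 10.5 to 10.6 FPKM in every library. Rpl26, a gene every cell uses, is listed at 0 in 3 libraries, so a 0 can be a failed estimate.

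Genes that reached 1 FPKM in 3 or more libraries were tested on log2(FPKM + 1), which understates changes of low genes (limma 3.58.1 with a mean-variance trend, R 4.3.3, two-sided, threshold 0.05). The fit was also run on simulated normal log2 values, independent between genes, and that outcome is not given here. Errors are SD for levels and SE for log2 changes. Depth was estimated from genes below 0.3 FPKM in every library and from lengths of 455 single-transcript genes. Of 8243 such low values, 84.3% came out whole (tolerance 1%) when divided by the lowest scaled value of their gene. The lowest value of each gene is whole by that division, so part of this share was fixed in advance.

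The 10 genes, the pathway and marker lists and the alternatives were chosen with earlier results of these data known. Named are the 10 genes, up to 4 list genes of smallest p at an unadjusted p under 0.05, Slc5a1 and Slc5a2, and the 5 genes most like the member of smallest p. Other genes were named after their values were seen. Positions are from GENCODE on GRCm38, and promoters from RefSeq. Alternatives were a pseudocount of 0.1, no filter, a filter of 5 FPKM, upper-quartile scaling, quantile normalization, no trend, the replicate number as a block and leaving out each library. Plots were made in Python 3.11.15 with matplotlib 3.10.9.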

Additional observations from a re-analysis of the deposited data

How the results depend on the processing

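Of the 10 genes, 0 were called in 12 of 13 other settings, and 1, Txnip, was called without diet replicate 3. The log2 change of Txnip stayed above 0 in all 13 settings, with adjusted p from 0.0388 to 0.310 (limma). It was 0.0574 with upper-quartile scaling and 0.168 with no filter. Signs changed for Slc2a1, whose log2 change ran from -0.13 to 0.11 when 1 library was left out, and for Slc2a12, from -0.11 to 0.030. These changes were not called in any setting. The other 6 tested genes kept their sign in every setting in which they were tested.

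The count over all genes, 31, was 1 with no filter, when 17726 genes were tested, and 20 with a filter of 5 FPKM. It ran from 2 to 70 when 1 library was left out, being 2 without tofogliflozin replicate 3 and 70 without diet replicate 2. The median log2 change of all genes was 0.01 with upper-quartile scaling and 0.00 with quantile normalization.

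No pairing of the mice by replicate number was seen in the values, though 3 libraries a group are too few to exclude it. Deviations of libraries with the same number correlated at -0.05, -0.06 and 0.05, and none of the tofogliflozin libraries was closest to the diet library of its own number. With the replicate block 26 genes were called over all genes and Txnip had an adjusted p of 0.0686 (limma). Hk2 rests on about 3.69 to 16.6 fragments per library, and what size of difference this depth could show was not tested.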
